A study of Rattus norvegicus with 8 samples.

Results

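Adra1d encodes the alpha-1D adrenergic receptor, and it was examined here with the other adrenergic receptors on the array, Adra1a, Adra1b, Adra2a, Adra2b, Adra2c, Adrb1 and Adrb3. Every probe set whose only gene symbol was one of these names was taken, which gave 11 probe sets of 8 genes among 31042 probe sets tested. The family was chosen by the diet difference of Adra1d itself, so the change of Adra1d is described without a test, whereas the other 7 genes entered by name alone.

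The rats were female Sprague-Dawley, 29 weeks old, and had been fed for 26 weeks. Daily Si intake was 0.17 mg per kg body weight in the Si deplete group, on a feed low in Si, and 4.1 mg per kg in the Si replete group, on the same feed with Si added to the drinking water. The left kidney was ground whole and each array carried the RNA of 1 rat (4 arrays per group). Levels are the deposited log2 values, so a difference of 1 is a 2-fold change, and each fold change is Si deplete over Si replete. Levels of different genes were not compared with each other, because probes differ in brightness; brighter and dimmer only tell apart the probe sets of 1 gene by their mean level, and the share of the array's probe sets that lay below a level is given in place of a comparison.

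Adrenergic receptors are G protein-coupled receptors for noradrenaline, the transmitter of sympathetic nerves, and adrenaline, the hormone of the adrenal medulla. Alpha-1 receptors couple to Gq/11 and raise cell calcium through phospholipase C, which contracts vascular smooth muscle. Alpha-2 receptors couple to Gi and lower cyclic AMP, and beta receptors couple to Gs and raise it. In the kidney these receptors take part in the control of blood flow, renin release and tubular sodium transport.

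The start region of Adra1d is shown because the results turn on this gene, and that of Adra1b because it is the other alpha-1 gene with a promoter entry in RefSeq. Each run holds 250 bases before and 50 bases after the gene's start in assembly GRCr8, 5′ to 3′ on the gene's strand, and capitals mark a GC box.
Adra1d, chr3:139262282-139262581, minus strand: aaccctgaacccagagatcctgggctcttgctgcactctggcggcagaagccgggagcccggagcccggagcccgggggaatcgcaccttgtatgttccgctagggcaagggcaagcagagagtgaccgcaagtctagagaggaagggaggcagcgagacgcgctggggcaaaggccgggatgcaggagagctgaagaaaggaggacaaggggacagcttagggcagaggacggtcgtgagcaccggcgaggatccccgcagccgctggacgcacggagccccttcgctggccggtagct
Adra1b, chr10:28814298-28814597, minus strand: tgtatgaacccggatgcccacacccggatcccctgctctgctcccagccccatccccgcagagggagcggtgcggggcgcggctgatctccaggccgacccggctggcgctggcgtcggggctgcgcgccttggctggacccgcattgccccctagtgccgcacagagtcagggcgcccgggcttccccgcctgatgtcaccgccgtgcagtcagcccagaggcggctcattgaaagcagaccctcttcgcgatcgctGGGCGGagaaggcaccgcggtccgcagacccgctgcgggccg
Of the 8 genes, 6 had a promoter of this length in RefSeq. The GC content was 65.7% for Adra1d and 72.0% for Adra1b, against a median of 51.7% over 33469 rat promoters. Motifs were searched on both strands: the GC box GGGCGG (in 33.1% of all these promoters), the CCAAT box (37.5%), the TATA box TATAAA (14.2%), the cyclic AMP response element TGACGTCA (1.83%) and the E-box CACGTG (6.42%). The Adra1d window held none of these 5 runs of letters, and the Adra1b window held 1 GC box.

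The arrays resembled each other closely, with correlations of levels between 0.9845 and 0.9961 and array medians between 3.80 and 3.92. On the first principal component, which held 42.1% of the variance, Si deplete replicate 1 stood apart at 64, and the other 7 arrays lay between -25.9 and 19.2. Over all 31042 probe sets, 47 (0.151%) passed limma's test at an adjusted p under 0.1, 4638 (14.9%) had an unadjusted p under 0.05, and 2909 (9.37%) had levels that did not overlap between the groups. A level under 4 is called dim here, and 51.3% of probe sets had a dim mean.

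Adra1d was the receptor gene with the large diet difference. In order of replicate number, its level was 7.37, 6.28, 5.35 and 6.73 in the Si deplete kidneys and 3.30, 2.91, 3.33 and 3.38 in the Si replete kidneys, and kidneys are given in that order throughout. All 4 Si deplete kidneys lay above all 4 Si replete kidneys, and the lowest Si deplete level exceeded the highest Si replete level by 1.97, or 3.92-fold. The means were 6.43 ± 0.85 and 3.23 ± 0.22 (SD, n = 4 each), a log2 fold change of 3.20 ± 0.36 (SE), or 9.21-fold on the scale of the deposited values. In the Si replete kidneys the probe set was dim and lay at percentiles 39.2 to 45.7 of its array, whereas in the Si deplete kidneys it lay at percentiles 60.5 to 73.5. No detection calls were used, so whether the Si replete levels lay above background is unknown, and the fold depends on the authors' background correction. Since whole kidneys were measured, more cells of a type and more RNA per cell cannot be told apart.

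The levels of Adra1d spanned 2.01 over the Si deplete kidneys and 0.47 over the Si replete kidneys, all of which were dim, so the spreads were not compared. Of the Si deplete kidneys, replicate 1 was highest and replicate 3 lowest. With single kidneys left out, the log2 fold change ranged from 2.89 without Si deplete replicate 1 to 3.56 without Si deplete replicate 3. Among all genes with a single symbol, Adra1d had the second highest log2 fold change, after Havcr1 (3.66), which encodes kidney injury molecule 1, and before Lcn2 (2.70). These values selected the gene, and no test is read from them.

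**Figure D1:**
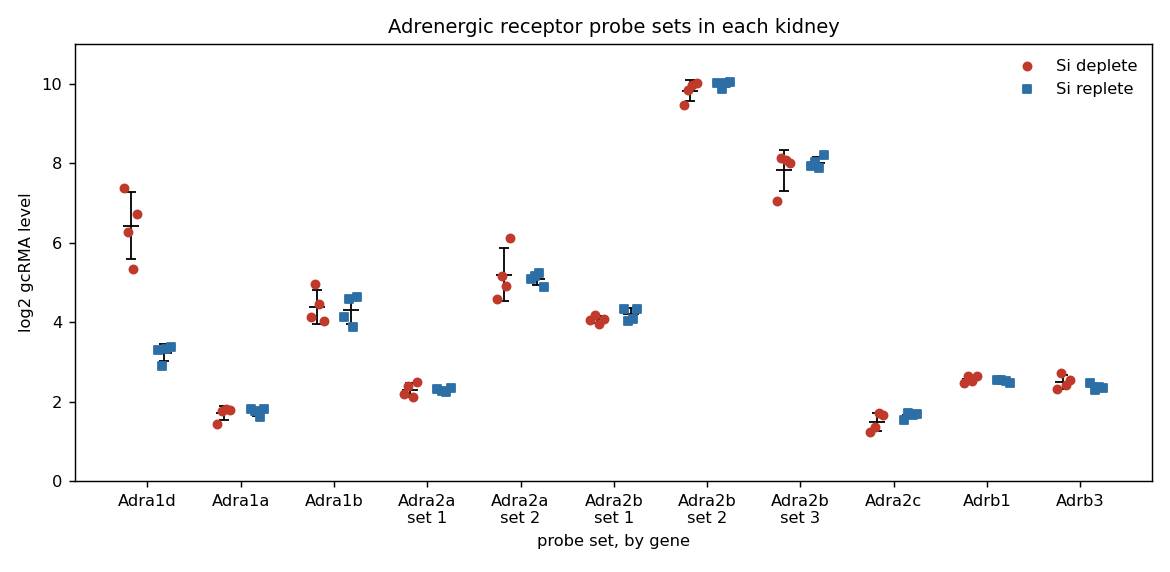
Log2 level of each adrenergic receptor probe set, side by side, in the 4 Si deplete and 4 Si replete kidneys. Each kidney is 1 point, and the group means are drawn with SD bars. For Adra1d the Si deplete points lie between 5.35 and 7.37 and the Si replete points between 2.91 and 3.38. In every other probe set the groups overlap.

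None of the other 10 probe sets passed the test, and the groups overlapped in all of them. Their log2 fold changes were 0.19 or less in size, 5 above and 5 below 0, with a median of -0.02 against -0.01 over all probe sets. Adjusted p-values from limma ran from 0.536 to 0.992. None had an unadjusted p under 0.05 (lowest 0.191), beside 14.9% of all probe sets, and none passed by Storey's q-value at 0.1. The 95% intervals of the differences lay between -0.70 and 0.74, so changes as large as that of Adra1d lay outside them. For 5 of the 10 the mean level was dim, in Adra1a, one of 2 Adra2a probe sets, Adra2c, Adrb1 and Adrb3. Whether these lay above background is unknown, so their intervals bound the deposited values and not the change in RNA.

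Among the alpha-1 genes, Adra1b, which like Adra1d couples to Gq/11, had levels of 4.12, 4.96, 4.46 and 4.02 in the Si deplete kidneys and 4.14, 4.58, 3.88 and 4.64 in the Si replete kidneys. These lay at percentiles 50.4 to 58.0 of the arrays, and the ranges of the groups overlapped. The log2 fold change was 0.08 ± 0.23 (SE), with a 95% interval from -0.45 to 0.61 (adjusted p = 0.900 by limma). Adra1a, the third alpha-1 gene, was dim in every kidney, at 1.45, 1.76, 1.83 and 1.79 in the Si deplete group and 1.82, 1.76, 1.61 and 1.81 in the Si replete group. Its log2 fold change was -0.04 ± 0.10 (95% interval -0.27 to 0.19, adjusted p = 0.892 by limma).

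Among the alpha-2 genes, Adra2b was read by 3 probe sets, all with a small negative difference that did not pass. The brightest of these, by mean level, lay at percentiles 89.3 to 92.7 of the arrays. Its levels were 9.46, 9.85, 9.98 and 10.02 in the Si deplete kidneys and 10.03, 9.87, 10.02 and 10.04 in the Si replete kidneys. The log2 fold change was -0.16 ± 0.13 (95% interval -0.45 to 0.12, adjusted p = 0.567 by limma), and Si deplete replicate 1 had the lowest level. The same kidney was lowest on the second brightest probe set, at 7.06 beside 8.14, 8.08 and 8.01 in the other Si deplete kidneys and 7.92, 8.02, 7.88 and 8.22 in the Si replete kidneys. That probe set had a log2 fold change of -0.19 ± 0.23 (adjusted p = 0.728 by limma), which became 0.07 without Si deplete replicate 1. The dimmest of the 3 had levels from 3.96 to 4.18 in the Si deplete group and from 4.04 to 4.34 in the Si replete group (log2 fold change -0.12 ± 0.10, adjusted p = 0.584 by limma).

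Adra2a, the main presynaptic brake on noradrenaline release, was read by 2 probe sets. On the brighter, the levels were 4.58, 5.17, 4.92 and 6.12 in the Si deplete kidneys and 5.08, 5.16, 5.25 and 4.89 in the Si replete kidneys. Si deplete replicate 4 was the highest of the 8 and replicate 1 the lowest, and the Si replete kidneys lay between them. The log2 fold change was 0.10 ± 0.28 (95% interval -0.53 to 0.74, adjusted p = 0.895 by limma), and it was -0.20 without Si deplete replicate 4. The other probe set was dim, from 2.12 to 2.50 in the Si deplete group and from 2.25 to 2.35 in the Si replete group. Adra2c was dim in all 8 kidneys, between 1.23 and 1.72, and its log2 fold change was -0.17 ± 0.12 (adjusted p = 0.536 by limma).

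Both beta genes were dim. Adrb1, the receptor through which sympathetic nerves drive renin release, ranged from 2.46 to 2.64 in the Si deplete kidneys and from 2.47 to 2.55 in the Si replete kidneys, with a log2 fold change of 0.05 ± 0.07 (adjusted p = 0.813 by limma). Adrb3, best known from adipose tissue, ranged from 2.31 to 2.72 and from 2.29 to 2.48, with a log2 fold change of 0.13 ± 0.10 (adjusted p = 0.559 by limma).

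**Figure D2:**
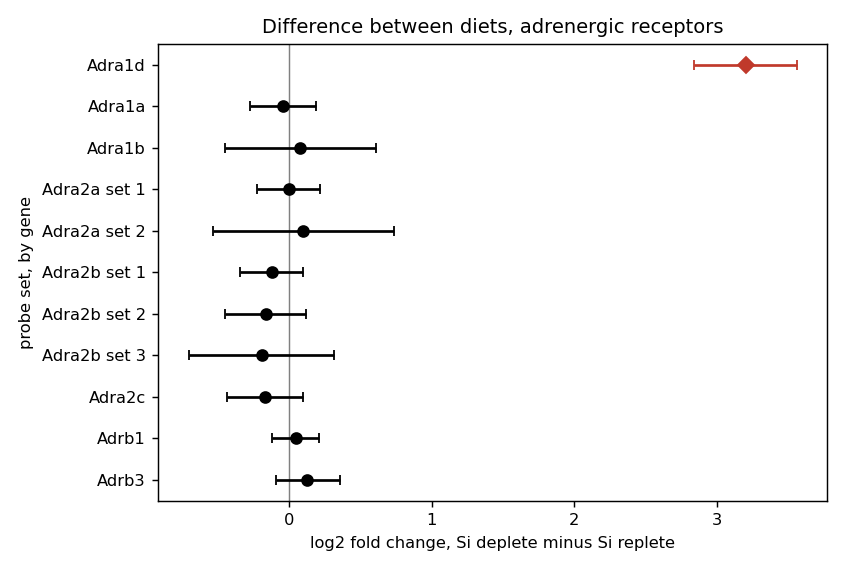
Log2 fold change (Si deplete over Si replete) of the 11 adrenergic receptor probe sets. Bars are 95% intervals from limma for the 10 other probe sets, and ± 1 SE for Adra1d (diamond), which was selected on this difference; Adra1d lies at 3.20 and the other 10 between -0.19 and 0.13, with intervals that all include 0.

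Across the 8 kidneys no other receptor followed Adra1d closely. Pearson's r with Adra1d ran from -0.65 for Adra2c to 0.42 for Adrb3, and it was -0.02 for Adra1b and -0.36 for Adra1a. These r are descriptions over 8 arrays that include the difference between diets. With each level taken as its deviation from the mean of its group, r was -0.69 for Adra1a, -0.42 for Adra1b and -0.68 for Adra2c. It ran from -0.70 on the second brightest to 0.34 on the dimmest Adra2b probe set, and these r are descriptions as well.

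Among 12231 probe sets of 9488 genes with a single symbol and a mean level of at least 4, the 5 genes with the highest r with Adra1d were Klf6 (0.985), Ifitm3 (0.981), Stk10 (0.980), Irf1 (0.978) and Mob3a (0.977). Klf6 is a zinc finger transcription factor, Ifitm3 an interferon-induced membrane protein, Stk10 a serine/threonine kinase, and Irf1 a transcription factor of the interferon response. Klf6 had levels of 8.89, 8.40, 8.32 and 8.78 in the Si deplete kidneys and 7.71, 7.53, 7.64 and 7.84 in the Si replete kidneys. Irf1 had levels of 9.05, 8.36, 7.74 and 8.47 in the Si deplete kidneys and 7.24, 6.96, 7.30 and 7.32 in the Si replete kidneys. In both, Si deplete replicate 1 was highest and replicate 3 lowest of the Si deplete kidneys, as in Adra1d, and the groups did not overlap. Their log2 fold changes were 0.92 and 1.20, and those of Ifitm3, Stk10 and Mob3a were 0.50, 0.66 and 0.75, all smaller than the 3.20 of Adra1d. Likeness to Adra1d largely picked this difference, so no test is read from it. These 5 names depended on single kidneys: without Si deplete replicate 1, only 1 of the 5 stayed among the 5 highest. The genes with the lowest r were Asb13 (-0.971), Washc3 (-0.970) and Tesc (-0.969), with log2 fold changes of -0.95, -0.36 and -0.49.

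When each level was taken as its deviation from the mean of its group, so that the difference between diets no longer entered, Irf1 had the highest r (0.986), followed by Bgn (0.980), Pros1 (0.979), Rheb (0.967) and Nedd4 (0.965). Bgn encodes the matrix proteoglycan biglycan and Pros1 the anticoagulant protein S. Bgn had levels of 10.06, 9.53, 9.13 and 9.70 in the Si deplete kidneys and 8.88, 8.57, 8.74 and 8.89 in the Si replete kidneys, which gives the same order of Si deplete kidneys as for Adra1d. Rheb and Nedd4 had log2 fold changes of 0.04 and 0.16 with overlapping groups, so their r did not go with a difference between diets. Rheb hardly varied, from 11.88 to 12.03 in the Si deplete and from 11.88 to 11.92 in the Si replete kidneys. These names were picked as the highest r among 12231 probe sets, so no test is read from them. They were not checked with single kidneys left out.

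**Figure D3:**
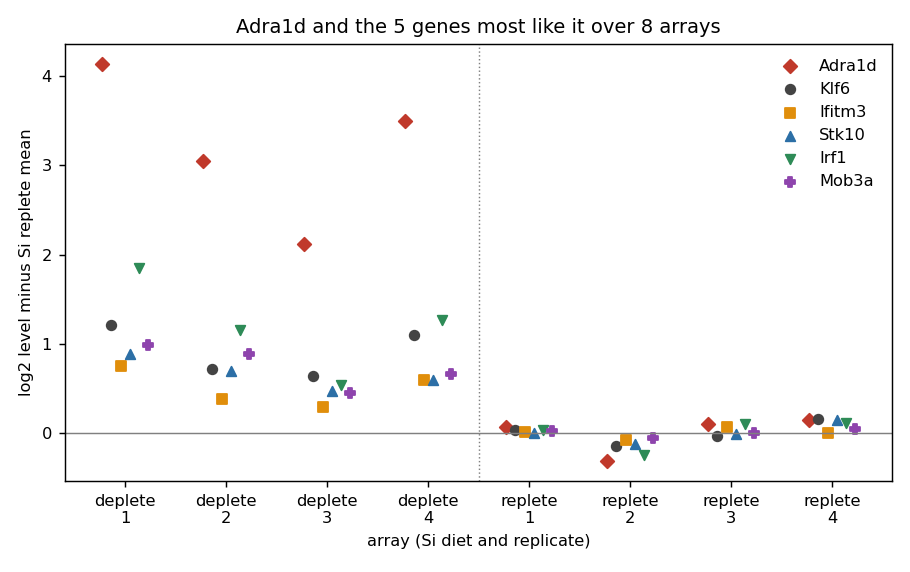
Log2 level minus the Si replete mean in each of the 8 kidneys, for Adra1d and the genes with the highest r with it. Adra1d and these genes are high in the 4 Si deplete kidneys, with a smaller change in the others (0.50 to 1.20) than in Adra1d (3.20).

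The genes that make, carry, store and degrade catecholamines, and those that act downstream of the receptors, were taken as 6 lists with 109 measured genes of 117 and 172 probe sets. None of the 172 passed (lowest adjusted p = 0.172 by limma), beside 0.151% of all probe sets, and none passed by Storey's q-value. An unadjusted p under 0.05 was reached by 22 (12.8%; 16 higher and 6 lower in Si deplete), against 14.9% of all probe sets, and the median log2 fold change was 0.00. The groups did not overlap in 12 (6.98%), against 9.37% of all probe sets. Of the 172 probe sets, 100 were dim.

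For catecholamine handling, 13 of 14 genes were measured by 19 probe sets. Slc18a2, the vesicular monoamine transporter, was dim on all its probe sets. The brightest was at 2.48 to 2.78 with Si depletion and 2.85 to 3.14 in Si replete kidneys (log2 fold change -0.36 ± 0.10, adjusted p = 0.203 by limma). The others had smaller log2 fold changes, -0.12 and -0.10. Maoa, which degrades noradrenaline, lay between 7.86 and 8.10 in the Si deplete and between 8.20 and 8.36 in the Si replete kidneys (-0.26 ± 0.08, adjusted p = 0.227 by limma). On the brightest Slc18a2 probe set and in Maoa the groups did not overlap, but neither passed the test. Gch1, which makes the cofactor of tyrosine hydroxylase, was dim, with a log2 fold change of 0.32 ± 0.16 on its brighter probe set and -0.11 on the other.

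Downstream of alpha-1 receptors, all 22 genes of the Gq/11 effector list were measured by 33 probe sets, of which 6 were higher and 2 lower at an unadjusted p under 0.05 (24.2%, against 14.9% of all probe sets). Itpr3, a calcium release channel opened by inositol trisphosphate, had levels of 8.84, 7.78, 7.43 and 7.66 in the Si deplete kidneys and 7.33, 6.64, 6.94 and 6.26 in the Si replete kidneys. The groups did not overlap, with a log2 fold change of 1.13 ± 0.32 that did not pass (adjusted p = 0.202 by limma). The groups overlapped in the brightest probe set of Prkcb, a protein kinase C (0.62 ± 0.21, adjusted p = 0.244 by limma). Its other probe sets were dim, with log2 fold changes of 0.56 and -0.29, each at an unadjusted p under 0.05. The counts of this list therefore hold Prkcb more than once, in both directions. The median of the list was 0.03.

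In the Gs and Gi list, 24 of 26 genes were measured by 41 probe sets, with a median of 0.00. At an unadjusted p under 0.05, 4 were higher and 1 lower (12.2%, against 14.9% of all probe sets). Gnai2, a Gi subunit, had a log2 fold change of 0.30 ± 0.10, and the adenylyl cyclases Adcy4 and Adcy2 had 0.40 ± 0.14 and 0.25 ± 0.09. Of these, Adcy2 was dim. The kinases, arrestins and RGS proteins that shut receptors off gave 13 of 13 genes on 21 probe sets, with a median of 0.12. Of these probe sets, 3 (14.3%, against 14.9% of all probe sets) were higher at an unadjusted p under 0.05. Arrb2, or beta-arrestin 2, was at 6.12 to 6.62 in the Si deplete and 5.34 to 5.94 in the Si replete kidneys. Its groups did not overlap and its log2 fold change was 0.67 ± 0.17 (adjusted p = 0.172 by limma). Grk2, a receptor kinase, had 0.49 ± 0.16 and Rgs16, which was dim, had 0.39 ± 0.14. None of these genes passed.

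Scaffold proteins of the alpha-1D receptor, the syntrophin and dystrophin complex and scribble, gave 3 measured genes of 6 and 7 probe sets, none with an unadjusted p under 0.05. Scrib had a log2 fold change of 0.26 ± 0.13, Dtna of -0.29 ± 0.18 and Utrn of -0.16 ± 0.31. The other receptors for amines and vasoactive ligands, 34 of 36 genes on 51 probe sets, ran from -0.44 to 0.83 with a median of -0.05. Of these probe sets, 4 (7.84%, against 14.9% of all probe sets) had an unadjusted p under 0.05 (3 higher, 1 lower). The 0.83 was that of Ptger3, a prostaglandin E2 receptor, whose brightest probe set had 0.59 ± 0.22 (adjusted p = 0.280 by limma). P2ry6, a receptor for uridine diphosphate, had 0.40 ± 0.15, and Agtr2, the type 2 angiotensin receptor, which was dim, had -0.24 ± 0.11. No log2 fold change in these lists exceeded 1.13, beside the 3.20 of Adra1d.

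**Figure D4:**
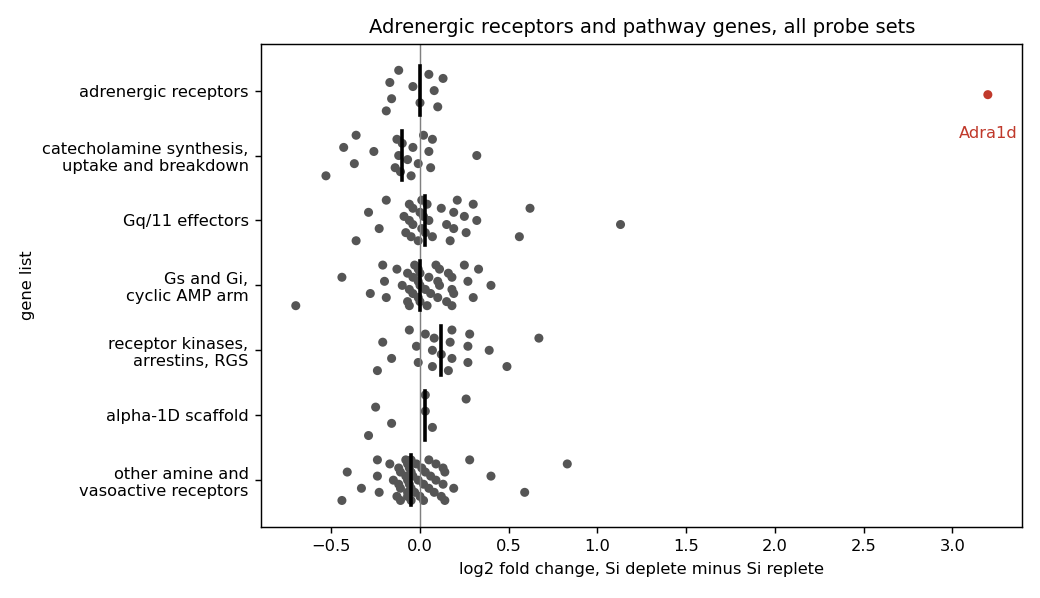
Log2 fold change (Si deplete over Si replete) of every probe set of the 6 pathway lists and of the adrenergic receptors, 1 point per probe set, with a black line at the median of each row. The list medians lie between -0.10 and 0.12, and Adra1d, at 3.20, stands apart from all other points, which lie between -0.70 and 1.13.

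The labelled tissue held high levels of its defining genes: the mean level of 11 proximal tubule markers was 10.78 to 11.56 in the Si deplete and 11.09 to 11.73 in the Si replete kidneys. Smooth muscle and mural cells are a known site of alpha-1 receptors. Their 13 markers had mean levels of 5.41 to 5.84 in the Si deplete and 5.10 to 5.53 in the Si replete kidneys, a difference of 0.21. Of their 18 probe sets, 3 (16.7%) were higher at an unadjusted p under 0.05, near the 14.9% of all probe sets in either direction, and none passed. The 6 fibroblast markers differed by 0.79 (7.80 to 9.17 against 7.37 to 8.05). Log2 fold changes were 1.80 for Col1a1, 1.48 for Col3a1 and 1.37 for Col1a2 but 0.16 for Pdgfra, 0.17 for Dcn and -0.25 for Lum. Of the 8 fibroblast probe sets, 5 (62.5%) were higher at an unadjusted p under 0.05, and none passed. The 7 macrophage markers differed by 0.54 and the 5 lymphocyte markers by 0.57. Higher at an unadjusted p under 0.05 were 4 of 9 macrophage probe sets (44.4%) and 2 of 8 lymphocyte probe sets (25%), and none passed. The marker lists were written with earlier results of these data known, so these counts are descriptions. The 4 podocyte markers differed by -0.39 and the proximal tubule list by -0.10. Of the 10 podocyte probe sets, 3 (30%, against 14.9% of all probe sets) were lower at an unadjusted p under 0.05, and none passed. The lists of endothelium, of distal nephron and collecting duct, and of adipocytes differed by -0.06, -0.09 and 0.00. The endothelium mean held Vwf at -1.02 ± 0.32 (adjusted p = 0.226 by limma) beside Pecam1 at 0.23 and Eng at 0.26. Of the 11 endothelium probe sets, 2 (18.2%, against 14.9% of all probe sets) were lower at an unadjusted p under 0.05, and none passed. For adrenal medulla and sympathetic nerve, all 7 measured markers were dim, between 1.56 and 2.72 over all arrays, and the list differed by -0.01; all 5 measured adrenal cortex markers were dim as well.

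Markers of injured tubule were higher in the Si deplete kidneys, as was Adra1d. All 10 probe sets of the 8 genes were higher in every Si deplete kidney than in any Si replete kidney. Over all probe sets, 9.37% did not overlap. Of the 10, 1 of Cd44 passed, beside 0.151% of all probe sets. The list was written with earlier results of these data known. It holds Havcr1 and Lcn2, which ranked 1 and 3 among all genes by log2 fold change. The counts are therefore descriptions, and no test is read from them. The mean level of the list was 11.28, 10.28, 9.91 and 10.78 in the Si deplete kidneys and 9.49, 8.56, 8.55 and 9.16 in the Si replete kidneys, a difference of 1.62. It was 1.39 without Si deplete replicate 1. By the mean of the list, the order of the Si deplete kidneys was that of Adra1d, with replicate 1 highest, then 4, 2 and 3. Single markers differed from this order: the Cd44 probe set that passed had levels of 6.55, 5.78, 5.43 and 5.55, and Vim was highest in replicate 4. In the Si replete kidneys the mean of the list was highest in replicate 1, but Adra1d was highest in replicate 4. The part of these markers, of the fibroblast and immune cell markers and of Si deplete replicate 1 in the level of Adra1d was not tested.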

How the data were processed

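Gene expression was measured on Affymetrix rat genome arrays in the left kidney of 4 Si deplete and 4 Si replete rats, 1 rat per array. The deposited values are log2 levels per probe set that the authors obtained by gcRMA (GCRMA 2.36.0 in the submitters' processing notes), summarized by m-estimators, so background correction and normalization are theirs; depth does not apply to arrays, whose number limits the precision. Si deplete was compared with Si replete by limma 3.58.1 in R 4.3.3 (lmFit and eBayes). P-values were adjusted by Benjamini-Hochberg over the 31042 probe sets left after 57 controls were removed from 31099, and 0.1 was the threshold. No filter on level was used. The step was tested on simulated data.

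Symbols came from the platform annotation; 20826 probe sets had 1 symbol. Members and lists were chosen with earlier results of these data known. Named genes were all members, of each pathway list those that passed or else the 3 smallest p on the brightest probe set, and the 5 highest and 3 lowest r with Adra1d (and the 5 highest r of deviations). Alternatives were an intensity trend, robust prior, array weights, a mean of at least 4, array medians subtracted, a replicate block, quantile normalization, Storey's q-value (lambda 0.5), a stricter threshold (0.05) and leaving out each array in turn. One list gene that the rule names is not reported here. Promoters came from RefSeq GRCr8. Figures were drawn with matplotlib 3.10.9.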

Additional observations from a re-analysis of the deposited data

Results flagged for a closer look

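In 7 of 156 groups of 4 kidneys, 1 kidney lay far from the other 3 by Dixon's criterion (the gap to the nearest kidney over the group's range), and chance gives about 5% of groups. Of the 22 groups of receptor probe sets, 3 met this.

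The brightest Adra2b probe set had Si replete replicate 2 at 9.87, below the others at 10.02 to 10.04 (gap 0.921 of the range). The second brightest Adra2b probe set had Si deplete replicate 1 at 7.06, below the others at 8.01 to 8.14 (0.876). Adrb1 had Si replete replicate 4 at 2.47, below the others at 2.53 to 2.55 (0.857), where all levels were dim.

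Of the list genes, Dtna had Si replete replicate 3 at 6.93, above the others at 6.14 to 6.26 (0.848). Among the markers, Aqp1 had Si deplete replicate 1 at 11.46, below the others at 12.13 to 12.27 (0.836). Slc22a8 had Si replete replicate 4 at 11.85, above the others at 11.41 to 11.48 (0.833). Hsd3b1 had Si deplete replicate 3 at 1.78, above the others at 1.65 to 1.67 (0.850), all dim.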

How the results depend on the processing

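Adra1d kept its direction under every alternative, with a log2 fold change of 2.89 to 3.56 with single arrays left out and 3.04 with array weights. The count of receptor probe sets past the threshold, which held Adra1d alone and describes the value it was selected on, was 0 at an adjusted p of 0.05 and 0 to 1 with arrays left out (0 without Si deplete replicate 2 or 4 and without each of Si replete replicates 1, 2 and 3). The other receptors stayed at a count of 0 under every alternative (adjusted p of 0.337 to 0.998). The count over all probe sets, 47, was 77 with a mean of at least 4 (15115 tested), 172 by Storey's q-value, 0 at 0.05 (4638 at an unadjusted p under 0.05) and 0 to 302 with single arrays left out. It was 0 when Si deplete replicate 2 or any of Si replete replicates 1, 2 and 3 was left out, 4 without Si deplete replicate 4, 14 without Si replete replicate 4 and 302 without Si deplete replicate 3. The pathway count was 0 to 2, with 2 (Prkcb and Arhgef1) without Si deplete replicate 3, and 1 to 4 of the 5 genes most like Adra1d stayed with arrays left out.

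With the replicate block, Adra1d had the same log2 fold change (3.20) and 104 probe sets passed, 21 of them among the 47. Same-numbered deviations correlated at 0.088, 0.09, 0.079 and -0.088, and 4 of 8 arrays had their closest match in the same number, so a shared number was not taken as pairing.

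Signs that changed were all of values that did not pass. With array medians subtracted, which moved the median of all probe sets to -0.067, the dimmer Adra2a probe set was -0.05 and Adrb1 -0.01. With single arrays left out, Adra1a ranged from -0.08 to 0.05, Adra1b from -0.11 to 0.21, Adra2a from -0.06 to 0.06 on its dimmer and from -0.20 to 0.31 on its brighter probe set, and the second brightest Adra2b probe set from -0.30 to 0.07. Of the other 10 receptor probe sets, 5 were dim and had no value with a mean of at least 4.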
